A study of Mus musculus with 9 samples.

Results

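The imprinted growth-network genes Mest, Plagl1, Peg3, Dlk1, Ndn, H19, Cdkn1c, Grb10 and Meg3 were followed in cultured mouse synovial fibroblasts (SFs), together with Copg2, which overlaps Mest. These 10 genes were taken by name from a table of 49548 genes, and each was found there once. RNA came from ankle joint SFs of 8-week-old CBA C57BL/6J mice, depleted of CD45+ cells at passage 1, in 3 wild type (WT) libraries, 3 libraries of hTNFtg mice, which carry a human TNF transgene, and 3 libraries of hTNFtg SFs that had received infliximab (Remicade), an antibody that blocks TNF, at 1 µg/mL for 48 hours. The labels give no treatment for the other 6 libraries, for which the methods describe vehicle. The promoter of the transgene is not given in the sources used here, and the libraries are described as biological replicates without saying which mice or cultures they came from. The members were selected on their normalized counts in these 9 libraries and the differences between the 3 groups, so their levels and changes are given as a description. No p-value is given for them, and where a member is said to be called by the rule of the study, this sorts its values by that rule and is not evidence of a change.

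Imprinted genes are transcribed mainly or only from the copy inherited from one parent, because methylation laid down in the germ line marks a control region near them. Many of them act on growth before and after birth, and a set of them is known to be expressed together in growing mesenchymal tissue and to be turned down as growth ends. In that set, Mest, Plagl1, Peg3, Dlk1 and Ndn are expressed from the paternal copy, and H19, Meg3 and Cdkn1c from the maternal copy, as is Grb10 in most tissues outside the brain. Copg2 encodes a subunit of the coat on vesicles that carry proteins back from the Golgi. It is read towards Mest from the opposite strand.

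For 8 of the 10 genes RefSeq gave promoter windows, 12 windows in all, each running from 250 bases before to 50 bases after a start of transcription (build GRCm38.p6). The 250 bases before the start are printed 5′ to 3′ for Mest, Plagl1 and Dlk1, 3 of the genes that were low in both kinds of hTNFtg SFs, for Peg3, the only 1 of the 8 with the string GGGGCCCC, and for Meg3, which was high under infliximab. Capitals mark matches, on either strand, to GGGGCCCC, a GC-rich string of the kind that the zinc-finger protein Plagl1 binds, to TATAAA and to CGCG. Mest has 3 windows, of which the first of an overlapping pair is shown, and Meg3 has 2, of which the one farther upstream is shown.
Mest, chr6:30737800-30738049, plus strand: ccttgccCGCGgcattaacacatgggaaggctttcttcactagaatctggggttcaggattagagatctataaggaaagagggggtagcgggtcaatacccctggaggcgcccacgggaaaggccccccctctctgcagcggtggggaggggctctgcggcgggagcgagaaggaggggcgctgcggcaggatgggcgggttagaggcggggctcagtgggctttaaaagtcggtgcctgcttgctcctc
Plagl1, chr10:13090582-13090831, plus strand: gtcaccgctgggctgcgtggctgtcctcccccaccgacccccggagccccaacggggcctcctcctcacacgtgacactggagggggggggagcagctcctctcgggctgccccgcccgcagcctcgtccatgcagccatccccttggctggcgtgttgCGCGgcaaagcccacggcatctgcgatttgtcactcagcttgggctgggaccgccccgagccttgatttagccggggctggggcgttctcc
Peg3, chr7:6730420-6730669, minus strand: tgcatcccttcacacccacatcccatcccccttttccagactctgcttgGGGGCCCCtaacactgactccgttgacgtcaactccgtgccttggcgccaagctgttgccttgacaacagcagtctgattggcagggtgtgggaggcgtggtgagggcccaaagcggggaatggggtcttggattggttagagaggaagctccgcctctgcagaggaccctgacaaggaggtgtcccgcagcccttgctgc
Dlk1, chr12:109452573-109452822, plus strand: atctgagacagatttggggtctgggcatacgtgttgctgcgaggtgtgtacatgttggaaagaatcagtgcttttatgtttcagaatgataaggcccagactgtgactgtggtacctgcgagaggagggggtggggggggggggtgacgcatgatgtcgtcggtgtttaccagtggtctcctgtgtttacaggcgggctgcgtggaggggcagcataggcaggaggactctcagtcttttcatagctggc
Meg3, chr12:109540746-109540995, plus strand: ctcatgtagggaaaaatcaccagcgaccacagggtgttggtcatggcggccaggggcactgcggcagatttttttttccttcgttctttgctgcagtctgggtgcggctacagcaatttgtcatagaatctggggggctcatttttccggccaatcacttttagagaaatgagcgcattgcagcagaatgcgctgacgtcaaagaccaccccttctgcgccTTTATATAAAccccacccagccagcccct

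In the Peg3 window GGGGCCCC began 201 bases before the start, and this string occurs in 1.08% of the 32851 mouse windows of the same length. Of the members' windows, only the Meg3 window shown held TATAAA, as 2 overlapping matches on opposite strands, the first starting 29 bases before the start, against 13.6% of all windows with a match. The string CGCG occurs in 38% of windows and was found in those of Mest, Copg2, Peg3, Plagl1 and Grb10, where Grb10 had 8 matches in 1 window. A second match in Plagl1 and the single match in Peg3 lay past the start and are not printed. Counted over all 300 bases, the windows shown held 17 CG dinucleotides in Mest, 26 in Plagl1, 13 in Peg3, 9 in Dlk1 and 13 in Meg3, where the median over all windows was 7. The windows not shown held 1 CG dinucleotide in Meg3, with no TATAAA, and 8 and 17 in Mest. The matches describe the letters of these windows and say nothing of binding.

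Libraries differed in depth. Values are counts normalized by the authors, in which 1 read was worth 0.534 to 1.10 counts in 8 libraries and 6.23 in hTNFtg replicate 1. That library held about 613239 reads and the others about 3828555 to 9014903, so its low values rest on few reads. Of 11 fibroblast markers, all were above 3 reads in every library. Summed macrophage markers (9 genes) ranged from 184 to 538 normalized counts in WT, 2732 to 6033 in hTNFtg and 1694 to 3275 in infliximab-treated SFs, with Lyz2 making most of the sum in both kinds of hTNFtg SFs and Cd163 at 0 in 7 of 9 libraries. Summed chondrocyte markers (7 genes, most of the sum from Comp and Sox9) ranged from 6216 to 9349, from 548 to 1212 and from 906 to 2519, and Acan was at 5 to 16, 0 to 1 and 0 to 4. Col2a1, at 51 to 94, 37 to 88 and 49 to 133, and Matn3, at 0 to 4 counts throughout, overlapped between the groups. Across the libraries 6 endothelial markers summed to 1 to 6 counts, 8 muscle markers to 8 to 64 and 5 Schwann cell markers to 66 to 186, and 7 hepatocyte markers reached 750 in infliximab replicate 3 against at most 44 elsewhere. Summed adipocyte markers (6 genes, mostly Fabp4) ranged from 389 to 457 in WT, 68 to 442 in hTNFtg and 125 to 218 in infliximab-treated SFs, and Pparg was at 12 to 23 in WT and 0 to 3 in the other 6 libraries. Only hTNFtg replicate 3 and infliximab replicate 3 had all 4 Y-linked genes tested above 3 reads and Xist at 2 or 0, against 131 to 560 in the others. The part of these differences in the results was not tested, and in bulk RNA fewer cells of a type and less RNA per cell cannot be told apart.

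In hTNFtg SFs the growth network was mostly low. Mest, Plagl1, Dlk1, Peg3, H19 and Cdkn1c were lowered against WT SFs, as was Copg2, whose reads cannot be told apart from those of Mest. Mest came to 3.75%, Plagl1 to 12.9%, Dlk1 to 26.7% and H19 to 35.1% of their WT means. Grb10 was at 64.9%, and Ndn and Meg3 overlapped WT. In infliximab-treated hTNFtg SFs Mest (and with it Copg2), H19 and Meg3 were raised over untreated hTNFtg SFs, and Mest reached 14.1% and H19 93.1% of the WT mean. This call of Mest held whichever library was left out. Those of H19 and Copg2 held in 5 and that of Meg3 in 2 of 6 such fits. The fall of Peg3 in hTNFtg versus WT SFs was called in 4 of 6. The Dlk1 mean was at 26.7% of WT in both kinds of hTNFtg SFs, which rests on the shallow hTNFtg replicate 1. Meg3 was the member that went above both other groups, at 226% of a WT mean that rests largely on WT replicate 1.

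A gene was called raised or lowered here by the rule of the study, a change of 1 or more on the log2 scale together with an unadjusted P under 0.05, applied to limma's fit over all genes. By it 7 of the 10 members were lowered and 0 raised in hTNFtg versus WT SFs, where 3.04% of the 28522 genes tested were lowered and 3.35% raised (4.03% and 4.96% of those with a mean of at least 10). In infliximab-treated versus untreated hTNFtg SFs 4 members were raised and 0 lowered, against 1.49% raised and 0.936% lowered of 28540 genes (1.75% and 1.01% at a mean of at least 10). For infliximab-treated hTNFtg versus WT SFs 5 members were lowered and 1 raised, against 2.95% and 3.86% of 28243 genes (3.33% and 4.34% at a mean of at least 10). Copg2 is 1 of the members called in each comparison, and its difference from Mest overlapped between all groups. The median log2 fold change of the members was -2.05, 1.10 and -1.28 in the 3 comparisons, and over all genes with a mean of at least 10 it was -0.07, 0.03 and -0.02. Which direction prevailed over all genes was not stable. Between treated and untreated SFs 426 genes were raised and 267 lowered, but 735 and 1390 with array quality weights, 518 and 711 with edgeR and 481 and 930 without hTNFtg replicate 1. In hTNFtg versus WT SFs 956 were raised and 867 lowered, and lowered genes prevailed without WT replicate 1 (738 and 862), WT replicate 2 (691 and 820), hTNFtg replicate 2 (990 and 1012) or hTNFtg replicate 3 (1186 and 1221). Since these contrasts chose the members, nothing is read from the counts. Each pair of comparisons shares 1 group of libraries, so they are not independent of each other.

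**Figure D1:**
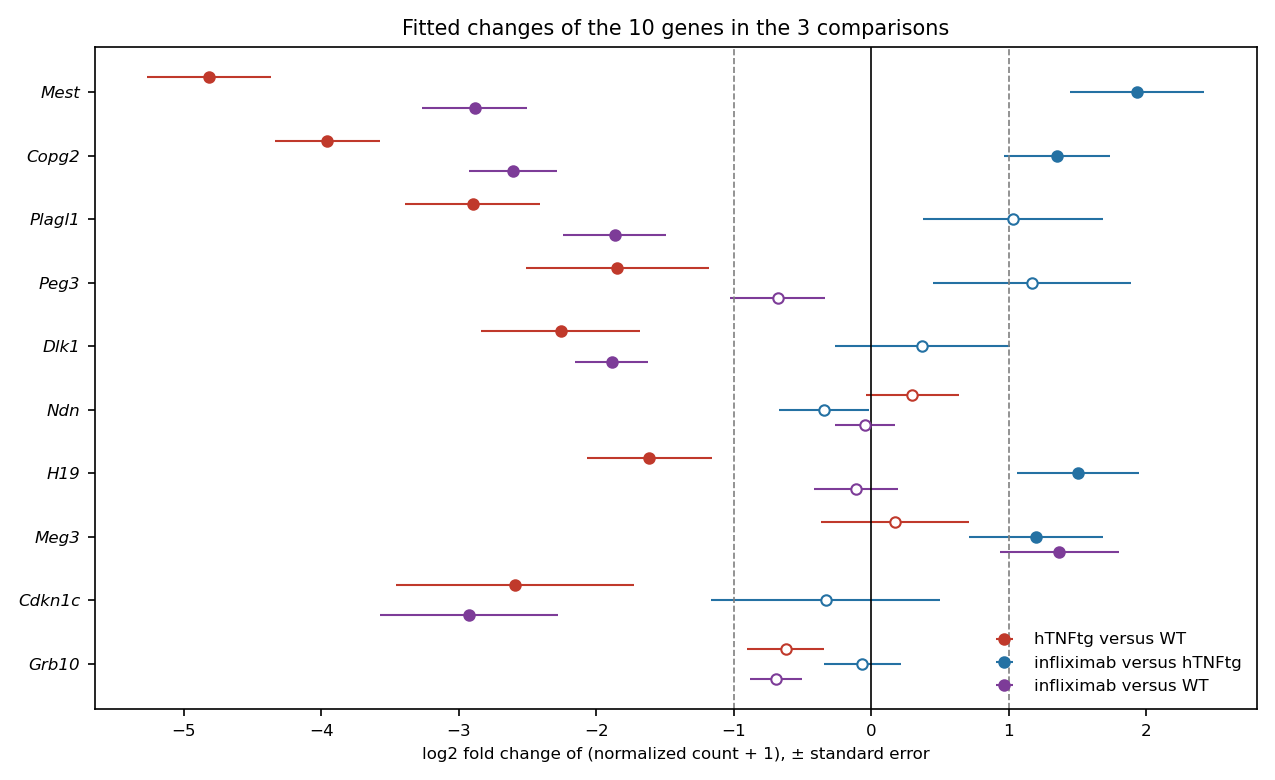
Fitted log2 fold change of each of the 10 genes (x axis, on the log2 scale of the normalized count plus 1, bars ± standard error) in the 3 comparisons of 3 against 3 libraries. Filled points passed the rule of the study and dashed lines mark a log2 fold change of 1 in either direction. Mest lies farthest left at -4.81 in hTNFtg versus WT SFs, and all points of Ndn and Grb10 are open.

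Mest, a hydrolase-like protein of the endoplasmic reticulum named for its transcript in mesoderm, lies at chr6:30723547-30748465 on the plus strand of mm10. Its normalized count was 1298, 726 and 1465 in WT replicates 1 to 3, 44, 68 and 19 in hTNFtg and 156, 251 and 86 in infliximab-treated hTNFtg SFs. The 3 groups did not overlap, since the lowest WT library stood above every infliximab library and the lowest infliximab library above every untreated one. Group means were 1163 ± 388 (SD, n = 3), 43.7 ± 24.5 (SD, n = 3) and 164 ± 82.8 (SD, n = 3), that is 26.6-fold higher in WT than in hTNFtg SFs and 3.76-fold higher with infliximab than without. On the log2 scale the changes were -4.81 (SE 0.45) for hTNFtg versus WT, 1.93 (SE 0.49) for infliximab-treated versus untreated and -2.88 (SE 0.38) for infliximab-treated versus WT SFs. These calls held when any 1 library was left out, with ranges of -5.22 to -4.32, 1.44 to 2.33 and -3.25 to -2.49. With array quality weights the first was -4.09. In the shallow hTNFtg replicate 1 the Mest value stands for about 7 reads.

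Copg2 lies at chr6:30747554-30896794 on the minus strand and ends inside Mest. The stretch shared by both is chr6:30747554-30748465, 912 bases that hold the end of the last exon and 3′ untranslated region of each gene, where 3′ sequencing reads a transcript. Copg2 stood at 1336, 761 and 1473 in WT replicates 1 to 3, at 93, 94 and 44 in hTNFtg and at 191, 271 and 126 in infliximab-treated SFs, and its groups were ordered as those of Mest without overlap. Its log2 fold changes were -3.96 (SE 0.38), 1.35 (SE 0.39) and -2.61 (SE 0.32) in the same 3 comparisons, and the rise with infliximab fell to 0.99, short of a call, without hTNFtg replicate 3. What was left of Copg2 after subtracting Mest was 38, 35 and 8 counts in WT, 49, 26 and 25 in hTNFtg and 35, 20 and 40 in infliximab-treated SFs. These remainders overlapped between all groups, with means of 27 ± 16.5 (SD, n = 3), 33.3 ± 13.6 (SD, n = 3) and 31.7 ± 10.4 (SD, n = 3). The Mest value was 95.4% to 99.5% of the Copg2 value in WT, 43.2% to 72.3% in hTNFtg and 68.3% to 92.6% in infliximab-treated SFs. Whether the authors' counting used strand is not given in the sources used here, so reads of Mest and Copg2 cannot be told apart, and the values of Copg2 are uncertain.

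**Figure D2:**
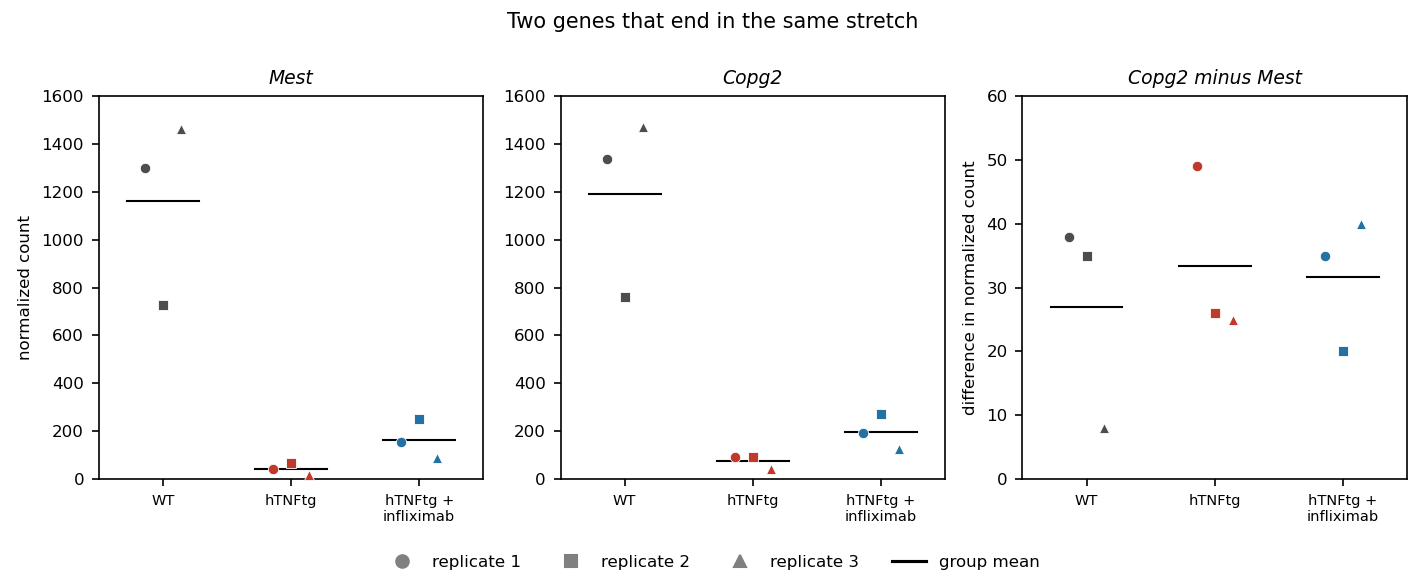
Normalized counts of Mest and Copg2 and their difference (y axes) in the 9 libraries, by group, with markers for replicates 1 to 3 and lines for group means. Mest came to at least 95.4% of Copg2 in the WT libraries and to as little as 43.2% in hTNFtg, while the difference lay between 8 and 49 counts in all groups.

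Plagl1 encodes a zinc-finger transcription factor that is known to act on other imprinted genes. Located at chr10:13060504-13131694, plus strand, it was counted at 113, 64 and 87 in WT, 6, 13 and 15 in hTNFtg and 32, 28 and 13 in infliximab-treated SFs. All 3 WT libraries lay above the other 6, and infliximab replicate 3 fell within the untreated range. The fall in hTNFtg SFs was -2.90 (SE 0.49) on the log2 scale and that of infliximab-treated SFs against WT -1.87 (SE 0.37), and both stayed called when any 1 library was left out. Infliximab-treated versus untreated SFs differed by 1.03 (SE 0.65), which was not called. In hTNFtg replicate 1 the value of 6 stands for about 1 read.

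Peg3, a large zinc-finger protein encoded at chr7:6703892-6730431 on the minus strand, was less abundant, at 44, 26 and 27 in WT, 12, 3 and 13 in hTNFtg and 21, 21 and 16 in infliximab-treated SFs. The infliximab libraries lay between the other groups without overlap. In hTNFtg versus WT SFs the log2 fold change was -1.85 (SE 0.67), a call that was lost without WT replicate 1 (-1.61) or hTNFtg replicate 2 (-1.26), and with array quality weights the value was -2.59. Neither 1.17 (SE 0.72) for infliximab-treated versus untreated nor -0.68 (SE 0.35) for infliximab-treated versus WT SFs was called, though the former came to 2.11 with a call under array quality weights. Its value in hTNFtg replicate 1 stands for about 2 reads.

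Dlk1 encodes a membrane protein with EGF-like repeats that restrains the maturation of fat cell precursors, at chr12:109452823-109463336, plus strand. It was counted at 137, 106 and 102 in WT, 62, 21 and 9 in hTNFtg and 31, 38 and 23 in infliximab-treated SFs. Every WT library was above the other 6, and the infliximab libraries lay inside the wide untreated range. The means of both kinds of hTNFtg SFs were 30.7, with SDs of 27.8 and 7.51 (n = 3 each). Log2 fold changes against WT were -2.26 (SE 0.58) without and -1.89 (SE 0.27) with infliximab, called also when any 1 library was left out. The first ran from -2.95 without hTNFtg replicate 1 to -1.63 without hTNFtg replicate 3. The difference between both kinds of hTNFtg SFs, 0.37 (SE 0.63), was not called and moved with the library left out, to 1.07 without hTNFtg replicate 1, where its 62 counts stand for about 10 reads, and to -0.26 without hTNFtg replicate 3. Of the paternally expressed members Mest had calls in all 3 comparisons, and Dlk1 and Plagl1 in the 2 against WT.

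Ndn encodes necdin, a growth suppressor best known from nerve cells, at chr7:62346569-62350262, plus strand. Its normalized count was 64, 77 and 88 in WT, 125, 77 and 84 in hTNFtg and 72, 72 and 76 in infliximab-treated SFs. The highest infliximab library was 1 count below the lowest untreated one, and WT overlapped both. Log2 fold changes were 0.30 (SE 0.34), -0.34 (SE 0.33) and -0.05 (SE 0.22), none of them called.

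**Figure D3:**
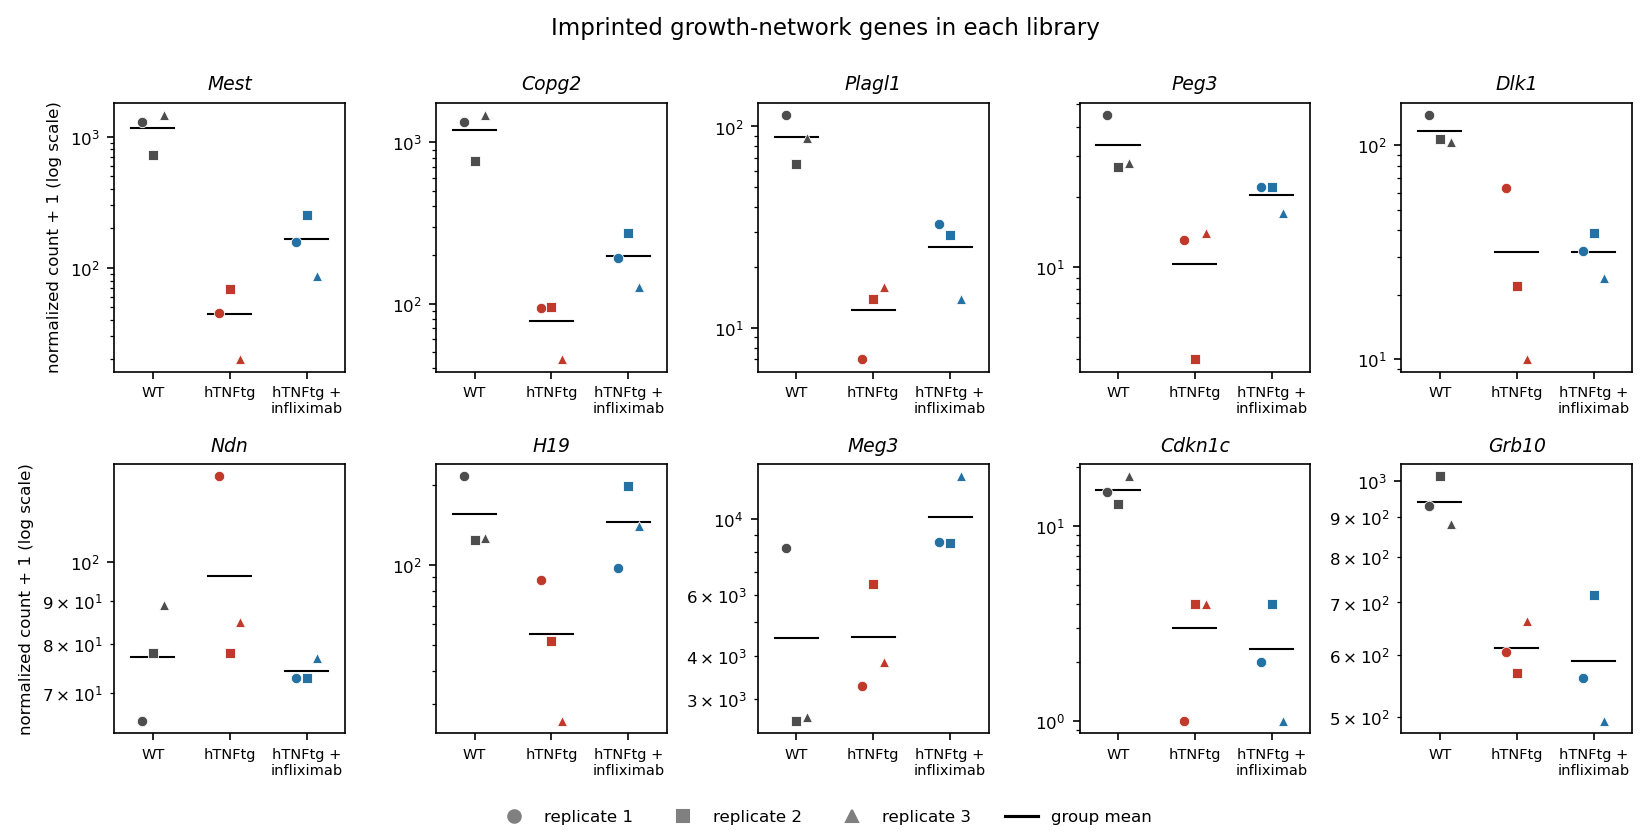
Normalized count plus 1 of the 10 genes on log axes (y axis, each panel on its own range) in WT, hTNFtg and infliximab-treated hTNFtg SFs, with markers for replicates 1 to 3 and lines for group means. The 3 WT libraries lie above the 3 untreated hTNFtg libraries in 8 panels and overlap them in those of Ndn and Meg3.

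H19 is a maternally expressed long noncoding RNA whose gene neighbours the growth factor gene Igf2, at chr7:142575529-142578143 on the minus strand. It was counted at 215, 124 and 126 in WT, 87, 51 and 25 in hTNFtg and 97, 197 and 139 in infliximab-treated SFs. Untreated hTNFtg libraries were below all others, and infliximab-treated and WT SFs overlapped. The highest untreated value, 87 in the shallow hTNFtg replicate 1, stands for about 14 reads, so its distance from the lowest infliximab library is uncertain. H19 was lowered in hTNFtg SFs by a log2 fold change of -1.62 (SE 0.46) and raised with infliximab by 1.50 (SE 0.44), and the difference between infliximab-treated and WT SFs was -0.11 (SE 0.31). The call with infliximab was lost without infliximab replicate 2 (1.25), and also without hTNFtg replicate 3 and infliximab replicate 3 together (1.04), a setting added after seeing the data. Igf2 itself was low, at 24, 10 and 40 counts in WT, 0, 2 and 4 in hTNFtg and 0, 5 and 10 in infliximab-treated SFs. Its log2 fold change was -3.18 (SE 0.91, adjusted p = 0.222) in hTNFtg and -2.47 (SE 0.89, adjusted p = 0.290) in infliximab-treated SFs against WT, past the rule of the study in both, the latter in only 2 of 6 fits with 1 library left out. Those fits gave -3.70 to -2.53 in hTNFtg and -3.19 to -1.46 in infliximab-treated SFs.

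Cdkn1c encodes an inhibitor of cyclin-dependent kinases that halts the cell cycle, at chr7:143458339-143461050, minus strand. Its normalized count was 14, 12 and 17 in WT, 0, 3 and 3 in hTNFtg and 1, 3 and 0 in infliximab-treated SFs. WT libraries were above the other 6, which overlapped. With infliximab the values stand for about 1, 3 and 0 reads, at or under the limit of 3 reads used here, and a 0 in hTNFtg replicate 1 allows up to 18.7 normalized counts. Fitted log2 fold changes against WT were therefore tied to the pseudocount, at -2.59 (SE 0.87) in hTNFtg and -2.93 (SE 0.65) in infliximab-treated SFs with 1 and at -1.49 and -1.63 with 5. Without hTNFtg replicate 1 the first was -1.93. Between both kinds of hTNFtg SFs the value was -0.33 (SE 0.83), not called, and its sign depended on the library left out (-1 to 0.17).

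Grb10, an adaptor protein that dampens signals of the insulin and insulin-like growth factor receptors, lies at chr11:11930508-12038683 on the minus strand. It stood at 928, 1014 and 882 in WT, 604, 567 and 662 in hTNFtg and 559, 714 and 493 in infliximab-treated SFs. The WT libraries were above all others, and both kinds of hTNFtg SFs overlapped. Changes against WT of -0.62 (SE 0.28) and -0.69 (SE 0.19) on the log2 scale were under the size the rule asks for, and -0.07 (SE 0.28) separated treated from untreated SFs.

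Meg3 is a maternally expressed long noncoding RNA, at chr12:109541001-109571726 on the plus strand downstream of Dlk1. It was counted at 8248, 2584 and 2653 in WT, 3257, 6479 and 3835 in hTNFtg and 8584, 8498 and 13328 in infliximab-treated SFs. Every infliximab library was above the other 6, the lowest at 8498 close to WT replicate 1 at 8248, and WT and hTNFtg overlapped. Its means were 4495 ± 3250.4 (SD, n = 3), 4524 ± 1718 (SD, n = 3) and 10137 ± 2764 (SD, n = 3). The log2 fold change was 0.17 (SE 0.54) in hTNFtg versus WT, 1.20 (SE 0.49) in infliximab-treated versus untreated and 1.37 (SE 0.43) in infliximab-treated versus WT SFs, the last 2 called. Each call held in 2 of 6 fits with 1 library left out. The first was lost without hTNFtg replicate 1 (0.99), infliximab replicate 1 (1.30), infliximab replicate 2 (1.31) or infliximab replicate 3 (0.98), and with hTNFtg replicate 3 and infliximab replicate 3 both left out (0.89) or array quality weights (0.69). The second was lost without WT replicate 2 (1.08), WT replicate 3 (1.10), infliximab replicate 1 (1.47) or infliximab replicate 3 (1.15), and with the replicate block (1.37). Its value was 1.92 without WT replicate 1.

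Groups without overlap were counted as well. In hTNFtg versus WT SFs 8 members were lower without overlap and 0 higher, against 5.8% and 5.63% of all genes. With infliximab 5 members were higher than in untreated hTNFtg SFs and 1, Ndn, was lower, against 3.99% and 3.44%. Against WT, infliximab-treated SFs had 7 members lower and 1 higher, with 7.07% and 7.14% of all genes. These counts rest on the values that chose the members and are given as a description.

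Meg3 lies in a domain with Dlk1, expressed from the paternal copy, and the maternally expressed noncoding RNAs Rian and Mirg. Rian was counted at 220, 206 and 88 in WT, 81, 159 and 132 in hTNFtg and 254, 325 and 455 in infliximab-treated SFs. It was raised with infliximab over untreated hTNFtg SFs by a log2 fold change of 1.48 (SE 0.34, adjusted p = 0.803), called in 6 of 6 fits with 1 library left out, and over WT by 1.07 (SE 0.35, adjusted p = 0.247), called in 3 of 6. Mirg stood at 118, 64 and 63, at 93, 147 and 65 and at 175, 158 and 271, and passed the rule in the same comparisons with 1.02 (SE 0.36, adjusted p = 0.803, called in 3 of 6) and 1.31 (SE 0.30, adjusted p = 0.0979, called in 6 of 6). As with Meg3, every infliximab library of Rian and Mirg was above the other 6. Dio3, which encodes an enzyme that inactivates thyroid hormone, was at 1045, 1139 and 1519, at 504, 913 and 1876 and at 1783, 1370 and 3274, with a called difference of 1.07 (SE 0.47, adjusted p = 0.803) between treated and untreated SFs that held in 1 of 6 such fits. Rtl1, a paternally expressed gene derived from a retrotransposon, had 5, 0 and 3, then 19, 8 and 7, then 0, 5 and 2 counts, and was lowered with infliximab by -2.11 (SE 0.96, adjusted p = 0.803) in a call that held in 1 of 6 fits. Within this domain Dlk1 was lower in infliximab-treated than in WT SFs, where Meg3, Rian and Mirg were higher.

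**Figure D4:**
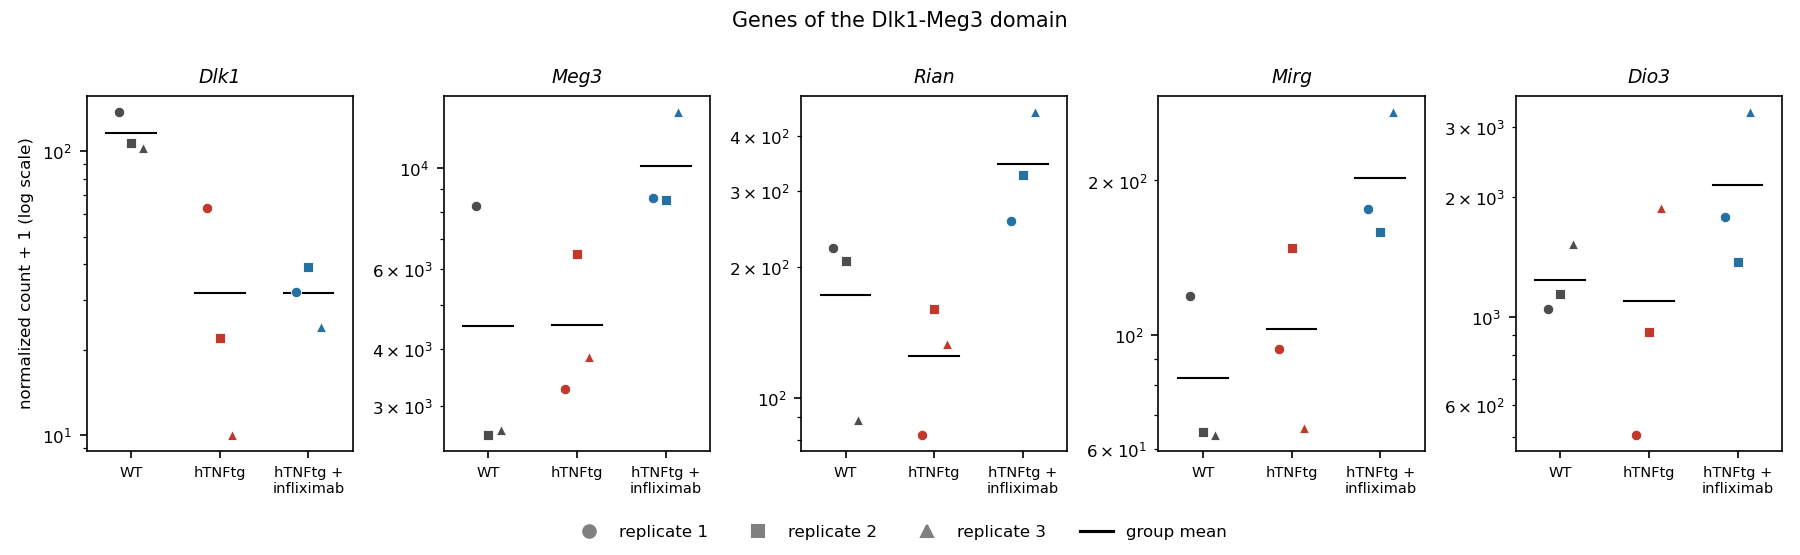
Normalized count plus 1 (log y axes, each panel on its own range) of Dlk1, Meg3, Rian, Mirg and Dio3 by group, with markers for replicates 1 to 3 and lines for group means. The infliximab libraries are highest for Meg3, Rian and Mirg, while for Dlk1 the WT libraries are highest, at 102 to 137 counts.

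Smaller entries of the table lie inside Meg3 on its strand. The entry of the microRNA gene Mir1906-1, at chr12:109544541-109544620, was counted at 4071, 783 and 640 in WT, 1134, 2790 and 1091 in hTNFtg and 4695, 4212 and 6853 in infliximab-treated SFs. It came to 30.3% and 24.1% of the Meg3 value in WT replicates 2 and 3, 49.4% in WT replicate 1, 28.4% to 43.1% in hTNFtg and 49.6% to 54.7% in infliximab-treated SFs. A neighbouring entry, Gm27300, had 627, 113 and 124, then 286, 406 and 127, then 611, 648 and 1046 counts. Gm26906, on the opposite strand at the 3′ end of Meg3, had 4 to 44 counts in the 9 libraries. The entry of Mir673 lies 264 bases past the end of Meg3 on its strand. It had 3678, 1619 and 1782 counts in WT, 1227, 3135 and 2368 in hTNFtg and 3258, 3826 and 5699 in infliximab-treated SFs. For this entry infliximab replicate 1 was below WT replicate 1, unlike for Meg3. These libraries read 3′ ends of polyadenylated RNA, so such counts are reads that fall in the interval and do not measure the mature microRNA. Mir675 inside H19 had at most 9 counts in any library, and Mir335 inside Mest at most 1.

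A list of 59 other imprinted genes, also drawn up with earlier results of these data known, was read in the same fits. In hTNFtg versus WT SFs 7 of 54 tested genes were lowered and 0 raised, beside 3.04% and 3.35% of all genes. With array quality weights 9 were lowered and 5 raised. Asb4, a substrate adaptor of ubiquitin ligases, was at 6, 10 and 8 counts in WT and at 0 in every untreated hTNFtg library. Ppp1r9a, which encodes the actin-binding protein neurabin, was at 39, 26 and 35 against 0, 4 and 14, and Ddc, the decarboxylase gene next to Grb10, at 22, 20 and 21 against 6, 7 and 10. Gab1, a docking protein of growth factor receptors, was at 82, 57 and 81 against 19, 35 and 53, and Slc38a4, an amino acid transporter, at 15, 24 and 32 against 0, 3 and 18. With 1 library left out, the calls of Ddc and Gab1 held in 2 of 6 fits, that of Slc38a4 in 1 and that of Ppp1r9a in 5. Nap1l5, with 1 to 3 counts in WT, and Igf2 complete the 7. Asb4, Nap1l5, Igf2, Ppp1r9a and Slc38a4 were at 0 in hTNFtg replicate 1, which allows up to 18.7 counts. With this limit the fall of Asb4 was at least 1.05-fold, and that of Nap1l5 was not bounded. Adjusted p-values of all 7 were between 0.106 and 0.638 in limma's fit with Benjamini-Hochberg adjustment.

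In infliximab-treated versus untreated hTNFtg SFs 4 of 53 other imprinted genes were raised and 2 lowered, all with an adjusted p of 0.803, beside 1.49% and 0.936% of all genes. Rian, Mirg, Dio3 and Asb4, at 2, 5 and 1 counts with infliximab in a call that held in 4 of 6 fits, were the raised genes. The 0 of Asb4 in hTNFtg replicate 1 allows up to 18.7 counts, so a rise with infliximab is not bounded. Rtl1 and Peg12 were lowered, Peg12 from 25, 27 and 45 to 6, 23 and 9 counts, a call that held in 2 of 6 fits. By limma's main fit this comparison gave 0 genes under an adjusted p of 0.05 and 1026 under an unadjusted P of 0.05. By adjusted p, limma gave 65 with array quality weights and 3 with all 9 libraries in 1 fit. With edgeR on approximate reads 165 passed by adjusted p. Against WT, 6 of 55 other imprinted genes were lowered with infliximab and 4 raised, beside 2.95% and 3.86% of all genes. The prevailing direction turned without infliximab replicate 1, where 6 were raised and 4 lowered. The lowered genes were Igf2, Ppp1r9a (11, 10 and 4 counts with infliximab), Ddc (8, 7 and 5), Asb4, Rasgrf1 (2, 3 and 5 in WT against 0 in every infliximab library) and Klf14 (5, 1 and 2 against 1, 0 and 0). Mirg, Rian, Tfpi2 (0, 1 and 1 against 2, 3 and 10) and Calcr were raised, where Calcr had at most 2 counts in any library. The calls of Tfpi2, Asb4 and Klf14 against WT each held in 2 of 6 fits with 1 library left out. With infliximab Rasgrf1 and Klf14 were at or under the limit of 3 reads in every library. With this limit the fall of Rasgrf1 against WT was at least 1.21-fold, and that of Klf14 was not bounded. The median log2 fold change of the listed genes was -0.28, 0.24 and -0.14 in the 3 comparisons.

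For the 8 members called in at least 1 comparison, so not for Ndn and Grb10, genes with the most similar profile over the 9 libraries were found by the root mean square difference between log2 profiles centred on their own means, among 13600 genes with a mean of at least 10. For Mest these were Copg2 (0.41) and Atp12a (0.50), for Copg2 Mest (0.41) and Id4 (0.42), and for Plagl1 Pdp1 (0.33) and Ggt5 (0.33). Samd5 (0.35) and Cygb (0.39) were nearest to Peg3, and Igfbp4 (0.32) and Pcolce2 (0.37) to Dlk1. H19 was nearest to Ccno (0.30) and Lzts2 (0.33), Cdkn1c to Pth1r (0.50) and Nckap5 (0.52), and Meg3 to 6030419C18Rik (0.26) and Mirg (0.29). Igfbp4, which encodes a binding protein of insulin-like growth factors, stood at 28065, 23735 and 21589 in WT, 8383, 4757 and 2908 in hTNFtg and 9299, 9534 and 6109 in infliximab-treated SFs. The likeness describes these libraries, which share groups, depth and normalization, and no test was made of it.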

How the data were processed

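RNA of 9 libraries of cultured SFs was prepared with a 3′ mRNA-Seq kit (QuantSeq) and sequenced on an Ion Proton. The authors mapped reads to mm10 with TopHat2, mapped leftover reads with Bowtie2, counted reads per gene with GenomicRanges, removed genes without counts, normalized the counts by a method they do not name and compared groups with DESeq, all through metaseqR, with versions not given in the sources used here. The deposited value of each gene is a score, namely a normalized count in rounded form. For hTNFtg replicate 1 the deposited signal equals whole reads times a factor, since 100% of its low values lie on such multiples. The normalized count that 1 read is worth was estimated for each library from the spacing of its low values, and this was tested on simulated data, where 9 of 9 steps came within 1 percent. Reads are approximate in the other 8 libraries.

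The members and all gene lists were chosen with earlier results of these data known. Both deposited tables were joined by gene identifier, and 0 genes differed between them in the untreated hTNFtg values. The coordinates of all 10 members equal those of GENCODE M21. A further 24 columns of per-sample values and the authors' columns of fold changes and p-values were not used. Groups of 3 libraries were compared with limma 3.58.1 (eBayes, trend; R 4.3.3) after adding 1 to each value and taking log2. Genes that were 0 in all 6 libraries were left out, with Benjamini-Hochberg adjustment over all of them. Limma's P-values set a group difference against the spread between libraries of a group, moderated towards a trend over all genes. Which mice or cultures that spread covers is not given. A group was at the floor when each library's normalized count was at most what 3 reads are worth, which covers counting error only. Because values are rounded, Cdkn1c with infliximab was not flagged, its 3 counts in infliximab replicate 2 lying above a limit of 2.70. Named were all 10 members, every other imprinted gene called in a comparison and Igf2. Overlapping genes with a mean of at least 10 and the 2 genes with the nearest profile to each called member were named too. Mir675, Mir335 and Mir673 were added after their values were seen. Alternatives were a pseudocount of 5, genes with a mean of at least 10, rescaling by median ratios, array quality weights, a replicate block, all 9 libraries in 1 fit, edgeR 4.0.16 on approximate reads and leaving out each library.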

Additional observations from a re-analysis of the deposited data

How the results depend on the processing

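Under all alternatives the members' called changes kept their sign. Of 397 values of single members under an alternative 393 moved by less than the replicate SD. With 3 libraries in a group, leaving out 1 cannot move a limma value by more than that SD. The replicate block, all 9 libraries in 1 fit and a mean of at least 10 leave the value unchanged. Most of the 397 were thus fixed in advance, and nothing is read from that count. The number of members called was 6 to 7 in hTNFtg versus WT, 2 to 4 in infliximab-treated versus untreated hTNFtg and 5 to 6 in infliximab-treated versus WT SFs, whichever library was left out. The 2 calls left in the second comparison came without infliximab replicate 2, and 2 also remained without hTNFtg replicate 3 and infliximab replicate 3 together, chosen after seeing their Y-linked and Xist values. Cdkn1c could not be tested among genes with a mean of at least 10. With array quality weights Meg3 lost its call between treated and untreated SFs (0.69) and Peg3 gained one (2.11).

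Counts over wider lists moved more, and the cause was not tested. Of the other imprinted genes 7, 6 and 10 were called in the 3 comparisons. In the first, quality weights gave 14 and leaving out 1 library gave 4 (WT replicate 3) to 11 (hTNFtg replicate 3). In the second, a pseudocount of 5 gave 2, a mean of at least 10 gave 3, the replicate block 3, leaving out 1 library 2 (hTNFtg replicate 2 or infliximab replicate 3) to 5, with 3 without hTNFtg replicate 3, and the added pair of libraries 3. In the third, a pseudocount of 5 and a mean of at least 10 each gave 5, and leaving out 1 library 5 (WT replicate 3) to 11.

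Over all genes 1823, 693 and 1923 were called. A mean of at least 10 gave 1183, 314 and 1056, a pseudocount of 5 gave 351 in the second and 1057 in the third, quality weights 3540 in the first and 2125 in the second, and edgeR 1229 in the second. Leaving out 1 library gave 1382 to 2407, 418 (infliximab replicate 2) to 1411 (hTNFtg replicate 1) and 1681 to 2516 genes. In the second comparison it gave 1089 when hTNFtg replicate 2 was dropped and 1115 when replicate 3 was.

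The labels number replicates in every group and give no pairing, so the main fits use none. Correlations of same-numbered libraries were -0.13 to 0.35, 0.07 to 0.26 and -0.14 to 0.11 in the 3 comparisons. Between treated and untreated hTNFtg SFs different numbers gave -0.24 to 0.12. There the Xist and Y-linked values also set replicate 3 apart in both groups. Whether treated and untreated SFs of 1 number share a culture was not tested. With the replicate block the members called were 7, 4 and 5, Meg3 being lost in infliximab-treated versus WT SFs, and all genes called were 1659, 605 and 1698. Depth limits Plagl1, Peg3 and Cdkn1c in hTNFtg replicate 1, where they rest on 1, 2 and 0 reads.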
